A study of Mus musculus with 800 samples.

Results

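Vmn1r56 to Vmn1r65 are 10 neighbouring V1R vomeronasal receptor genes on proximal mouse chromosome 7, and all 10 had a row in the count table of 28963 genes. They were taken by name, with earlier results of these data known, and they are all functional V1R genes by annotation. The samples were the 800 chambers of 1 microfluidic capture chip, loaded with vomeronasal cells of 7 male mice aged 66 days, heterozygous for a GFP allele of the olfactory marker protein gene (OMP(GFP/wt), strain B6;129P2-Omptm3Mom/MomJ) and pooled as 3 and 4 animals. Every group shared this genotype, sex and age, the labels name no treatment, and the groups differed only in what the labels said a chamber had captured: a single cell in 49.2% of chambers, no cell (empty) in 40.6%, several cells in 63 chambers and a putative single cell in 18. Cells had been sorted for GFP, for Hoechst and against DRAQ7, so they were selected by the activity of the Omp locus. The labels did not link chambers to animals or pools, so each capture state was 1 unit, no test between states was possible, and intervals in brackets are exact 95% intervals for counting error only.

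V1R receptors are G protein coupled receptors of the apical neurons of the vomeronasal organ, where they act through the G protein alpha subunit Gnai2 and detect small molecules in urine and other secretions. A vomeronasal neuron is thought to transcribe 1 receptor gene from a very large repertoire, and receptors are encoded in clusters of near copies that arose by duplication. The measurements asked in how many cells each of these genes was the main receptor, how exclusively it was used, and how its counts compared with those of chambers without a cell.

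On GRCm38 (GENCODE vM21) the genes ran from Vmn1r56 (chromosome 7, 5194916 to 5196747, minus strand) to Vmn1r65 (6007750 to 6011010, minus strand), a span of 816095 bases. Vmn1r57 (5218493 to 5221736) and Vmn1r62 (5673631 to 5676663) lay on the plus strand and the other 8 genes on the minus strand: Vmn1r58 at 5401681 to 5413396, Vmn1r59 at 5450208 to 5456774, Vmn1r60 at 5539346 to 5547317, Vmn1r61 at 5601647 to 5613295, Vmn1r63 at 5802345 to 5805445 and Vmn1r64 at 5883580 to 5884542. Gaps between neighbours ran from 21745 bases (Vmn1r56 to Vmn1r57) to 179944 bases (Vmn1r57 to Vmn1r58). No member was overlapped by another annotated gene. The receptor Vmn2r28 and the pseudogenes Vmn1r-ps40, Vmn1r-ps45 and Vmn1r-ps46 lay between them, and the next V1R gene, Vmn1r66, began 4261980 bases beyond Vmn1r65. On the other side the V1R gene Vmn1r55 (5129291 to 5149670, minus strand) lay close before Vmn1r56. Each member had its whole coding sequence in 1 exon, of 900 to 996 bases without the stop codon. Annotated transcripts differed far more in length: the longest of Vmn1r58 had 10140 bases, while that of Vmn1r64 had 963 and so ended with the stop codon. Counts came from 3′ ends and were not divided by length, so a level of one member cannot be set strictly against that of another.

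The coding sequences were near copies of each other, which bears on how reads could be assigned. Pairwise coding identity had a median of 89% over the 45 pairs, with a range of 73.5% to 97.1%. Vmn1r62 and Vmn1r63 were the most alike pair (97.1%). Vmn1r65 stood apart, with 73.5% to 78.4% identity to the other 9 genes, against 84.8% to 97.1% among those 9. The longest run shared without a mismatch by any pair was found in Vmn1r61 (chr7:5610567-5610822, minus strand) and Vmn1r62 (chr7:5675813-5676068, plus strand), where it covers coding bases 492 to 747 of both genes. It is shown because no read lying inside it can be told apart between the genes:
Vmn1r61 and Vmn1r62: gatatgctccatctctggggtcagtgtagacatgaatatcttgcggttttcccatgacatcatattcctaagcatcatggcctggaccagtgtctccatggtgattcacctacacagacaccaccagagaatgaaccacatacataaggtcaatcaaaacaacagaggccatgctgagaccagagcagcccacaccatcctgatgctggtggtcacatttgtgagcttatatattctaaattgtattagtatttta
The coding stretch with most differences is shown to let the genes be told apart. In an alignment of the 10 coding sequences, 631 of 996 columns were identical in all genes, and the 90-base window with most variable columns held 43. Capitals mark bases that differ from Vmn1r62, and all sequences are GENCODE vM21 transcript sequence on GRCm38, read 5′ to 3′ along the gene:
Vmn1r56 (chr7:5195809-5195898, minus strand): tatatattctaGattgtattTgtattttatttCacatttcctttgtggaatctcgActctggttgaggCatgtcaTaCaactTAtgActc
Vmn1r57 (chr7:5221196-5221285, plus strand): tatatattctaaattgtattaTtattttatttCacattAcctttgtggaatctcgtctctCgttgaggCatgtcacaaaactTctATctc
Vmn1r58 (chr7:5410422-5410511, minus strand): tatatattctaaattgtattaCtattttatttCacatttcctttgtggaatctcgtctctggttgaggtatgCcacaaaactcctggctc
Vmn1r59 (chr7:5453952-5454041, minus strand): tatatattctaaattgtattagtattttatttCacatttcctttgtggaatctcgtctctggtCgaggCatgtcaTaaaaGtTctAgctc
Vmn1r60 (chr7:5544292-5544381, minus strand): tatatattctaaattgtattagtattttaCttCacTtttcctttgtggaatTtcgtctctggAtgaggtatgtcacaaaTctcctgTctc
Vmn1r61 (chr7:5610506-5610595, minus strand): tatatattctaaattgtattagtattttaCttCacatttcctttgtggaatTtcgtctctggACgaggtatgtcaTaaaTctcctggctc
Vmn1r62 (chr7:5676040-5676129, plus strand): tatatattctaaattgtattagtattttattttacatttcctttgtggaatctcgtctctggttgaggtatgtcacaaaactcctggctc
Vmn1r63 (chr7:5802824-5802913, minus strand): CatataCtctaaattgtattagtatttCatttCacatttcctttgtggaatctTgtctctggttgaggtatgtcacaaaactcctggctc
Vmn1r64 (chr7:5883705-5883794, minus strand): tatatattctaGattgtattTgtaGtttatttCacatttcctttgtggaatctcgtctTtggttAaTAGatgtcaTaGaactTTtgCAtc
Vmn1r65 (chr7:6008360-6008449, minus strand): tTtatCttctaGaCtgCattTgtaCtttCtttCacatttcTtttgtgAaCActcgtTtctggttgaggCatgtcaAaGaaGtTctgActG
In this window Vmn1r58 differed from Vmn1r62 at 3 bases, Vmn1r63 at 5, Vmn1r59, Vmn1r60 and Vmn1r61 at 7, Vmn1r57 at 8, Vmn1r56 at 10, Vmn1r64 at 15 and Vmn1r65 at 21.

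Sharing at the 3′ ends differed between pairs. Of the 45 pairs, 41 shared a coding run of at least 50 bases, and 32 had in common at least 1% of the 50-base words from the transcripts of 1 of the genes. When the last 600 bases of the annotated transcripts were compared only with each other, however, 36 of 45 pairs shared no 50-base word. Among the exceptions, Vmn1r57 shared 10.7% of these words with Vmn1r59 and Vmn1r60 shared 7.08% with Vmn1r64. The only annotated transcript of Vmn1r64 had 963 bases and ended with the stop codon, so its last 600 bases are coding sequence. Vmn1r60 held 8.97% of the Vmn1r64 words over whole transcripts and 14.2% in the last 600 bases, which hold fewer words. Sharing at an unannotated 3′ end of Vmn1r64 was not measured. The name of the table speaks of fractional multimapping, its values are whole numbers, and no further detail is given in the sources used here, so counts of these genes are uncertain where reads came from shared sequence. Outside the 10 genes, Vmn1r55 was the only receptor past the 1% limit, with Vmn1r56, Vmn1r57, Vmn1r59, Vmn1r60 and Vmn1r64.

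Single-cell chambers held a median total of 149648 counts and empty chambers 20731, over a range of 4501 to 319287 for the whole chip. A total of 128852 counts, the lower quartile for single cells, was reached by 25 empty chambers (7.69% [5.04–11.1]), so an empty label did not always go with little RNA. In the text below a chamber is named by the row and the number in its title, and its level of a gene is given as counts per 10000 counts of that chamber or as a share of its receptor counts.

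Each member was silent in most single cells and high in a few. The median count was 0 for every member in every capture state. At least 10 counts of 1 of the 10 genes were found in 40 single-cell chambers (10.2% [7.35–13.6]), 27 empty chambers (8.31% [5.55–11.9]), 14 of 63 multiple-cell chambers (22.2% [12.7–34.5]) and 4 of 18 putative single-cell chambers. At 50 counts or more there were 27 single-cell chambers (6.85% [4.56–9.81]) against 3 empty ones (0.923% [0.191–2.67]) and 8 multiple-cell ones. Chambers whose highest member had 10 to 49 counts were fewer among single-cell chambers (13, or 3.3%) than among empty ones (24, or 7.38%).

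**Figure D1:**
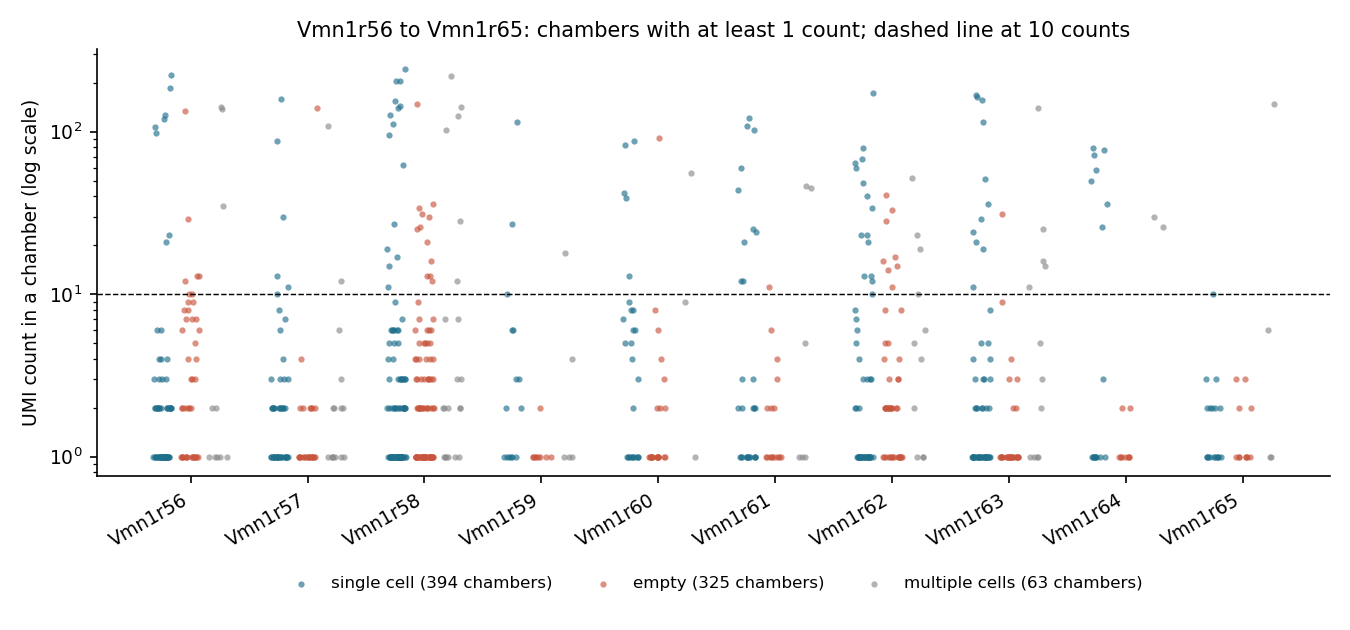
Count of each gene (log scale) in every single-cell, empty and multiple-cell chamber that held at least 1 count of it; each point is 1 chamber and the dashed line marks 10 counts. Vmn1r58 and Vmn1r62 have the most single-cell chambers at 10 counts or more (15 each), while Vmn1r65 has 1.

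Vmn1r58 and Vmn1r62 reached 10 counts in 15 single-cell chambers each, Vmn1r63 in 11, Vmn1r61 in 10, Vmn1r56 in 8, Vmn1r64 in 7, Vmn1r57 in 6, Vmn1r60 in 5, Vmn1r59 in 3 and Vmn1r65 in 1. At 50 counts the order was Vmn1r58 (10 chambers), Vmn1r56 (6), Vmn1r62, Vmn1r63 and Vmn1r64 (5 each), Vmn1r61 (4), Vmn1r57 and Vmn1r60 (2 each), Vmn1r59 (1) and Vmn1r65 (0). Neighbours in the order at 10 counts had overlapping intervals for their share of chambers, from 3.81% [2.15–6.2] for Vmn1r58 and Vmn1r62, through 2.03% [0.881–3.96] for Vmn1r56, to 0.761% [0.157–2.21] for Vmn1r59 and 0.254% [0.00643–1.41] for Vmn1r65. Summed over the single-cell chambers, the levels in counts per 1000000 (CPM) were 29.3 for Vmn1r58, 16.8 for Vmn1r56, 14.6 for Vmn1r63, 12.7 for Vmn1r62, 9.34 for Vmn1r61, 6.85 for Vmn1r64, 6.6 for Vmn1r57, 5.63 for Vmn1r60, 3.01 for Vmn1r59 and 0.601 for Vmn1r65. The 5 highest chambers held 54.3% of the counts of Vmn1r58 and 91.1% of those of Vmn1r59.

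On the CPM scale of each state, the 10 genes together gave 105.4 CPM in single-cell and 121.4 CPM in empty chambers, a ratio of 0.868 [0.822–0.917]. Gnai2 (0.688) and Omp (0.757) were also below 1 on this scale. As mean counts per chamber, the 10 genes were 3.16-fold [3–3.34] higher in single-cell chambers, whose totals were larger. The CPM ratio rested on few chambers. Without the 1 empty chamber with the highest sum it was 1.06, in title numbers 11 to 20 it was 1.11 and in title numbers 1 to 10 it was 0.683, so no direction can be read from it. By gene, Vmn1r64 was 8.44-fold [4.67–17], Vmn1r59 4.08-fold [2.17–8.65], Vmn1r61 3.25-fold [2.34–4.61] and Vmn1r63 2.61-fold [2.07–3.35] higher on the CPM scale in single-cell chambers. Those are 4 of 10 members past 2-fold, against 23.5% of other functional V1R genes and 19.2% of all 18844 genes with at least 50 counts. Vmn1r65 was the 1 member past 2-fold lower (0.48-fold [0.262–0.91]), against 8.73% of all genes, but it was at 2.43-fold in title numbers 11 to 20 and at 0.582-fold without its highest empty chamber. Vmn1r59 was at 1.47-fold without its highest single-cell chamber and turned direction, to 0.754-fold, in title numbers 11 to 20. Vmn1r63 was at 1.98-fold in title numbers 1 to 10 and at 4.36-fold without its highest empty chamber. Vmn1r61 and Vmn1r64 stayed past 2-fold in each alternative run for them, at 2.54-fold or more and 4.26-fold or more.

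In empty chambers a few chambers held much of the counts of some members. The highest chamber had 80.8% of the Vmn1r57 counts of all empty chambers, 68.4% of those of Vmn1r60 and 39.6% of those of Vmn1r56. Vmn1r59 and Vmn1r64 never passed 2 counts in an empty chamber. Vmn1r58 was at 43.7 CPM in empty chambers, with 12 of them at 10 counts or more, and Vmn1r56 at 24.8 CPM, with 7.

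Each chamber's title gives 1 of 40 rows and 1 of 20 numbers, and for Vmn1r58 and Vmn1r56 most of the higher counts in empty chambers lay in title numbers that also held a chamber with many counts of the gene. In title number 8, Vmn1r58 reached 10.7, 9.91 and 6.6 counts per 10000 in the single-cell chambers of rows 5, 34 and 6, and 8 of the 24 empty chambers with that number held 10 or more counts, at 13 to 36. In title number 11, with no such source, the 28 empty chambers held 0 counts of Vmn1r58. Vmn1r56 showed the same in title number 19, where 1 single-cell chamber held 9.59 per 10000 and 5 of 24 empty chambers held 10 to 29 counts. In the next counts a source was any chamber with 100 counts or more of the gene, of any capture state, and was itself left out. The empty chambers of row 38, number 1 (Vmn1r56), row 19, number 11 (Vmn1r57) and row 39, number 7 (Vmn1r58) were such sources. Taking the 8 members with a source of 100 counts or more, 21 of 407 empty chambers with the title number of a source held at least 10 counts of that gene (5.16% [3.22–7.78]). Of these 21, 11 were for Vmn1r58, 6 for Vmn1r56, 3 for Vmn1r62 and 1 for Vmn1r63, with 0 for Vmn1r57, Vmn1r59, Vmn1r61 and Vmn1r65. Among those that shared only the row 0 did (up to 1.77%), and among 1984 that shared neither 6 did (0.302% [0.111–0.657]), counting each chamber once per gene. The highest empty chambers of Vmn1r57 (row 19, number 11) and Vmn1r62 (41 counts in row 15, number 14) had no source of another capture state in their title number. Chambers of other states with that number held at most 4 and 13 counts of the gene.

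**Figure D2:**
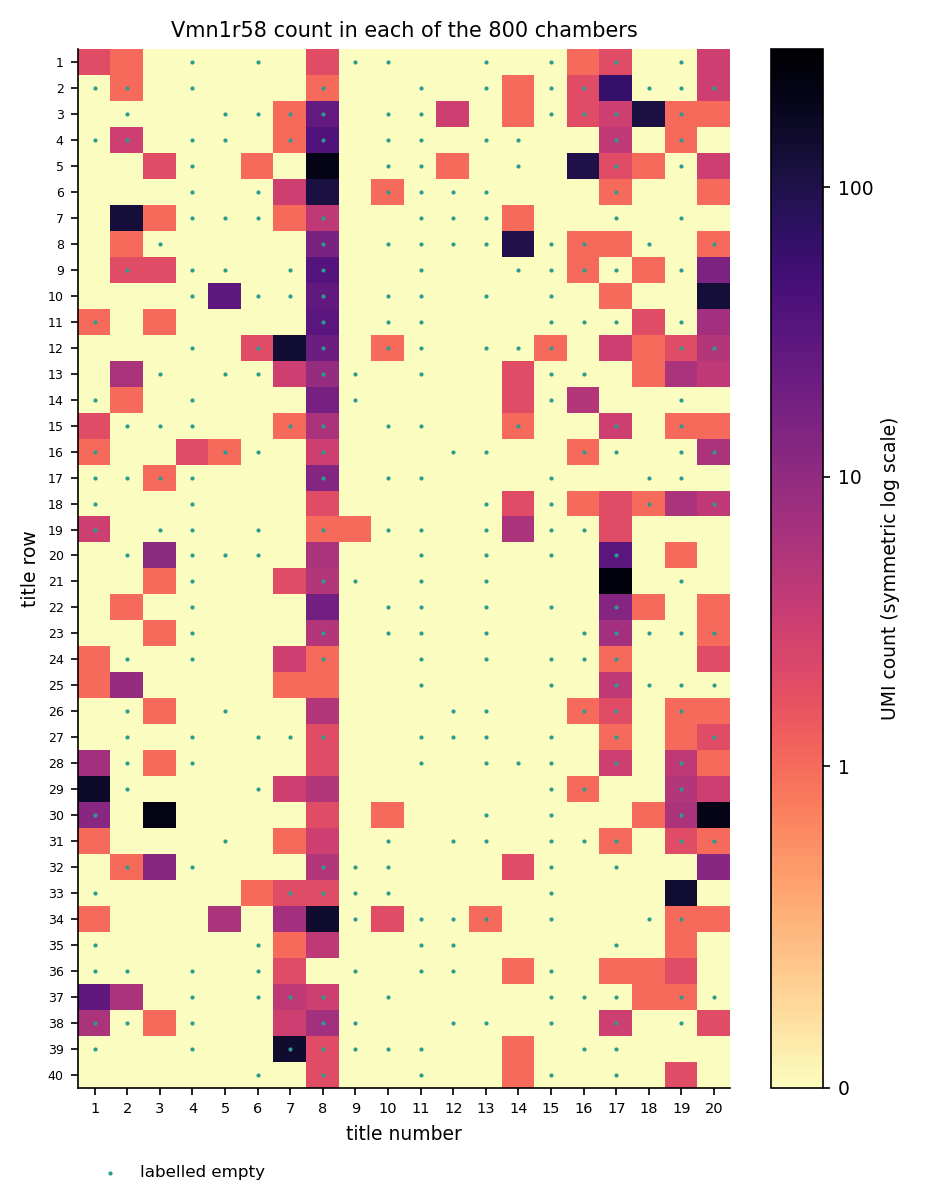
Vmn1r58 count in each of the 800 chambers by title row (vertical) and title number (horizontal), on a symmetric log colour scale, with chambers labelled empty marked by a dot. Low counts run along title number 8, which has strong single-cell chambers in rows 5, 6 and 34, and are missing from the empty chambers of title number 11.

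The members stood in different ratios in empty chambers and in the strong chambers that shared their title number. In the 24 empty chambers of title number 8, Vmn1r60 summed to 33 counts, Vmn1r62 to 16, of which 14 lay in row 37, and Vmn1r61 to 2. The strong chambers of this number held 87 and 83 counts of Vmn1r60, 44 and 24 of Vmn1r61 and 48 and 60 of Vmn1r62 in rows 34 and 6, and 0, 2 and 13 in row 5. The part of this spread in the counts of chambers with cells was not tested beyond the correction given below.

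A member was the top receptor of 25 single-cell chambers, counting every vomeronasal receptor gene outside V2R family C, whose members are co-expressed by basal neurons. Vmn1r58 led 7 chambers, Vmn1r56 and Vmn1r64 led 6 each, Vmn1r63 led 3, Vmn1r62 led 2 and Vmn1r59 led 1. These 25 chambers lay in 21 title rows and 14 title numbers, and the lead gene's count was kept in 25 of 25 by the cross-talk correction, which keeps a receptor count only where it reaches 5 plus 3 times the 75% quantile found in the rest of its title row and likewise of its title number. Vmn1r57, Vmn1r60, Vmn1r61 and Vmn1r65 led none. A cell's receptor was called where the top receptor had at least 10 counts and 50% of the receptor counts, which held for 9 cells (2.28% [1.05–4.29]): 3 for Vmn1r56 and 2 each for Vmn1r58, Vmn1r63 and Vmn1r64. Thus 4 of 10 members were called in at least 1 cell, where 30.5% of the functional V1R genes outside the 10 were. With the cross-talk correction and with receptors of shared sequence left out of the total, 20 cells were called (5.08% [3.13–7.73]): 5 each for Vmn1r56, Vmn1r58 and Vmn1r64, 2 each for Vmn1r62 and Vmn1r63, and 1 for Vmn1r59. That made 6 of 10 members, against 45.5% of those outside the 10. Empty chambers gave 2 calls of a member as deposited (Vmn1r57 and Vmn1r62) and 4 with both corrections (1.23% [0.336–3.12]). Counting any receptor, the same rule gave a call in 52 empty chambers as deposited. With both corrections it gave a call in most empty chambers, as in most single-cell chambers. A corrected call alone therefore does not show that a chamber held a cell.

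The lead gene's share of receptor counts was seldom high. In the 25 chambers it ran from 19.4% to 63.4% with a median of 40.4%, and the 10 members together held 23.7% to 93.5% with a median of 59.8%. In 17 of the 25 the 10 genes together passed 50%. Treating the 10 genes as 1 receptor, a choice made after the data were seen, gave 18 called cells. Another member stood as a second receptor (at least 10 counts and 10% of the lead) in 10 of the 25 chambers, and a receptor outside the 10 in 21, or in 19 after the cross-talk correction. Over all 40 single-cell chambers with a member at 10 counts or more, the median share of the highest member was 29.4%, and 38 chambers (95% [83.1–99.4]) had another receptor beside it. Of the 40, those that are not among the 25 had a top receptor outside the 10 genes, so they had another receptor by definition.

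**Figure D3:**
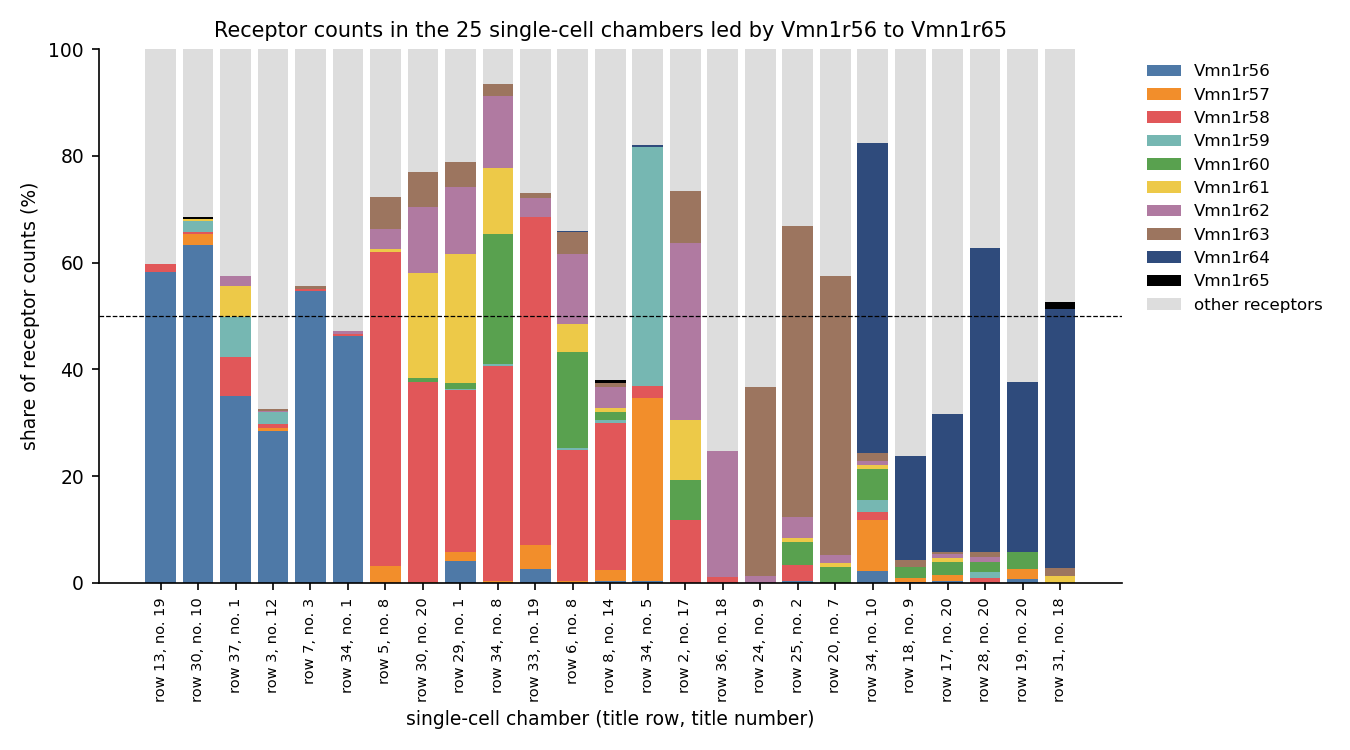
Share of the receptor counts (%) held by each of the 10 genes and by all other receptors in the 25 single-cell chambers where a member was the top receptor, ordered by lead gene; the dashed line marks 50%. Several chambers led by Vmn1r58 and the first led by Vmn1r62 mix Vmn1r58, Vmn1r60, Vmn1r61, Vmn1r62 and Vmn1r63, while chambers led by Vmn1r56, except row 37, number 1, and by Vmn1r64 hold little of these.

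Vmn1r58 was the member with the most single-cell chambers at 50 counts or more, and it was seldom alone. At 10 counts it and Vmn1r62 had 15 single-cell chambers each. Vmn1r58 held 50 counts or more in 10 single-cell chambers, at 5.26 to 11.4 counts per 10000. Vmn1r62 reached 10 counts in 9 of these 10 chambers, Vmn1r61 and Vmn1r63 in 7 each, Vmn1r60 in 4 and Vmn1r57 in 3, and each of these numbers was the same after the cross-talk correction. Vmn1r64, by contrast, was at 0 in 9 of the 10 and at 1 in the other. The fullest mixtures lay in different rows and title numbers. In row 30, number 20, Vmn1r58 made up 37.4% of the receptor counts, Vmn1r61 19.7%, Vmn1r62 12.4% and Vmn1r63 6.57%. In row 29, number 1, Vmn1r58 made up 30.4%, Vmn1r61 24.1%, Vmn1r62 12.6% and Vmn1r63 4.73%. Both chambers were high for Vmn1r61 and held 4 and 6 counts of Vmn1r60.

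Other chambers with Vmn1r58 held more Vmn1r60. In row 34, number 8, Vmn1r58 made up 40.4% of the receptor counts, Vmn1r60 24.4%, Vmn1r62 13.5% and Vmn1r61 12.4%, and the 10 genes together 93.5%. In row 6, number 8, the shares were 24.4% for Vmn1r58, 18.1% for Vmn1r60, 13.1% for Vmn1r62 and 5.23% for Vmn1r61. In row 10, number 20, Vmn1r58 had 16%, Vmn1r60 5.34% and Vmn1r62 5.08%, beside 33.4% of Vmn1r229, which was the top receptor. Vmn1r60 and Vmn1r61 also occurred together, at 39 and 60 counts in row 2, number 17. Chambers outside the single-cell state held both Vmn1r58 and Vmn1r60 too. In the empty chamber of row 39, number 7, which had a total of 167975 counts, Vmn1r58 had 41.4%, Vmn1r60 25.6%, Vmn1r62 9.3% and Vmn1r63 8.73%, and the 10 genes together 89.3%. A multiple-cell chamber in row 12, number 7 held 29.2% of Vmn1r58, 11.5% of Vmn1r60, 9.24% of Vmn1r61 and 4.72% of Vmn1r62.

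Chambers of Vmn1r58 with little of the other members also occurred. In row 33, number 19, Vmn1r58 held 61.5% of the receptor counts, against 4.42% of Vmn1r57 and 3.54% of Vmn1r62. In row 5, number 8, it held 58.9%, against 6% of Vmn1r63, 3.71% of Vmn1r62 and 3.14% of Vmn1r57. The mixture thus varied between chambers, and Vmn1r61 ran from 0% to 96.8% of the Vmn1r58 count.

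Vmn1r62 reached 10 counts in 15 single-cell chambers, of which 9 also had Vmn1r58 at 10 or more. In the chamber with most of it, row 2, number 17, Vmn1r62 made up 33.1% of the receptor counts, Vmn1r58 11.8%, Vmn1r61 11.4%, Vmn1r63 9.7% and Vmn1r60 7.41%. Vmn1r186, a V1R gene annotated on the unplaced scaffold GL456219.1, made up 18.8% there. In 5 of the 15 chambers Vmn1r58 was at 0 or 1, and there Vmn1r62 had 10 to 34 counts. These low counts were within the range seen in empty chambers, where Vmn1r62 reached 41. In the chamber with 34 counts of Vmn1r62 (row 23, number 6), Vmn1r57 held 33.5% of the receptor counts and Vmn1r70, the top receptor, 42.9%.

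Vmn1r56 came with little of the other members. In the 6 chambers it led it stood at 10.5, 10.3, 9.59, 9.04, 7.56 and 6.47 counts per 10000, and the highest count of any other member was 1 to 27 with a median of 6. Vmn1r60 and Vmn1r64 were at 0 in all 6 chambers. The exception was row 37, number 1, where Vmn1r56 held 35% of the receptor counts, Vmn1r58 and Vmn1r59 7.44% each, Vmn1r61 5.79% and Vmn1r55 4.96%. Other receptors were present in all 6. In the 3 called cells these were Vmn1r89, Vmn1r174 and Vmn1r210 at 6.27% to 7.05% beside 58.2% of Vmn1r56, Vmn1r230 (17.8%) and Vmn1r198 (6.85%) beside 63.4%, and Vmn1r89 (9.79%), Vmn2r48 (7.73%) and Vmn2r51 (7.73%) beside 54.6%. The cross-talk correction removed Vmn1r89, Vmn1r174 and Vmn1r210 in the first of these cells and kept Vmn1r230 in the next.

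Vmn1r63 stood at 11.7, 11.2 and 11.1 counts per 10000 in the chambers it led (row 20, number 7; row 24, number 9; row 25, number 2) and at 7.94 in row 19, number 9, led by Vmn1r148. Vmn1r62, its nearest copy, had 5, 6, 12 and 1 count in these 4 chambers. Among the other members Vmn1r60 reached 13 and the rest stayed at 9 or under. A gene and a pseudogene were high in the same chambers. AC102264.1, a protein-coding gene on the same scaffold as Vmn1r186 (GL456219.1, 149261 to 150163), had 52, 19, 59 and 26 counts there, 11.3% to 36.2% of the Vmn1r63 count. Over the whole chip it reached 5 counts in 9 chambers, and Vmn1r63 was at 10 or more in each of them. The pseudogene Vmn1rn-ps44 had 24, 7, 32 and 34 counts in these 4 chambers and reached 5 counts in 5 chambers of the chip, each with at least 50 counts of Vmn1r63. The sequences of AC102264.1 and Vmn1rn-ps44 were not compared here, so shared reads and separate transcripts cannot be told apart.

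Vmn1r64 had 79, 77, 72, 58, 50 and 36 counts in the 6 chambers it led, and at most 2 counts in any empty chamber. All 6 counts lay above every empty chamber and below each lead count of Vmn1r56, Vmn1r58, Vmn1r59 and Vmn1r63. It was called in 2 cells as deposited and 5 with both corrections. In row 28, number 20 it held 56.9% of the receptor counts with no second receptor, and in row 34, number 10 it held 58.1% beside 9.56% of Vmn1r57. Vmn1r60 had 2 to 8 counts in the 5 chambers with at least 50 counts of Vmn1r64, that is 3.45% to 10.4% of the Vmn1r64 count. Vmn1r60 and Vmn1r57 were also the members that shared most sequence in the last 600 bases with Vmn1r64, at 14.2% of its 50-base words for Vmn1r60 and 8.89% for Vmn1r57. For Vmn1r64 these bases are coding sequence, since its annotated transcript ends with the stop codon. The part of shared reads in these counts was not tested.

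Vmn1r57 and Vmn1r59 met in 1 chamber at high counts. In row 34, number 5 Vmn1r59 held 44.7% of the receptor counts and Vmn1r57 34.2%, and the pair shared 10.7% and 8.53% of their 50-base words in the last 600 bases. The other single-cell chamber with a high count of Vmn1r57, row 23, number 6, had 0 of Vmn1r59. In an empty chamber of row 19, number 11, Vmn1r57 held 55.8% of the receptor counts, also with 0 of Vmn1r59.

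Vmn1r65, the most distant in sequence, was barely found in single cells. It had 10 counts in 1 single-cell chamber, where Vmn1r191 was the top receptor, and at most 3 in any other. In the multiple-cell chamber of row 34, number 7 it held 42% of the receptor counts, beside 39.5% of Vmn1r63. That was the only chamber of the chip with more than 10 counts of Vmn1r65.

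Across the single-cell chambers, Pearson's r of log2(counts per 10000 + 1) was 0.84 for Vmn1r61 and Vmn1r62, 0.77 for Vmn1r58 and Vmn1r62, 0.74 for Vmn1r58 and Vmn1r61, 0.68 for Vmn1r60 and Vmn1r62, 0.61 for Vmn1r58 and Vmn1r60 and 0.61 for Vmn1r57 and Vmn1r59. Of the 36 pairs among the 9 members with at least 10 counts in 3 or more chambers, 8 had r of 0.5 or more (22.2%), against 1.47% of all 6328 such pairs of V1R genes and 9.29% of 506 other pairs under 1 Mb apart. Of 936 pairs of a member and another V1R gene, 0 did. These values rest on the few chambers where a gene was high, all chambers share 1 chip, and the part of shared reads in them was not tested. The 8 pairs with r of 0.5 or more had 89.5% to 97.1% identity. Vmn1r65 was not among the 9 members in these pairs, since it reached 10 counts in only 1 single-cell chamber. Its pairs, at 73.5% to 78.4% identity, had r of 0.12 or less, which cannot be read against identity. Among the more alike pairs the orders of identity and r differed. Vmn1r62 and Vmn1r63 had 97.1% identity and r of 0.51, while Vmn1r58 and Vmn1r61 had 91.2% identity and r of 0.74. Vmn1r56 and Vmn1r57 had 93.5% identity and r of 0.07. The highest r of Vmn1r64 with another member was 0.20, with Vmn1r60.

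**Figure D4:**
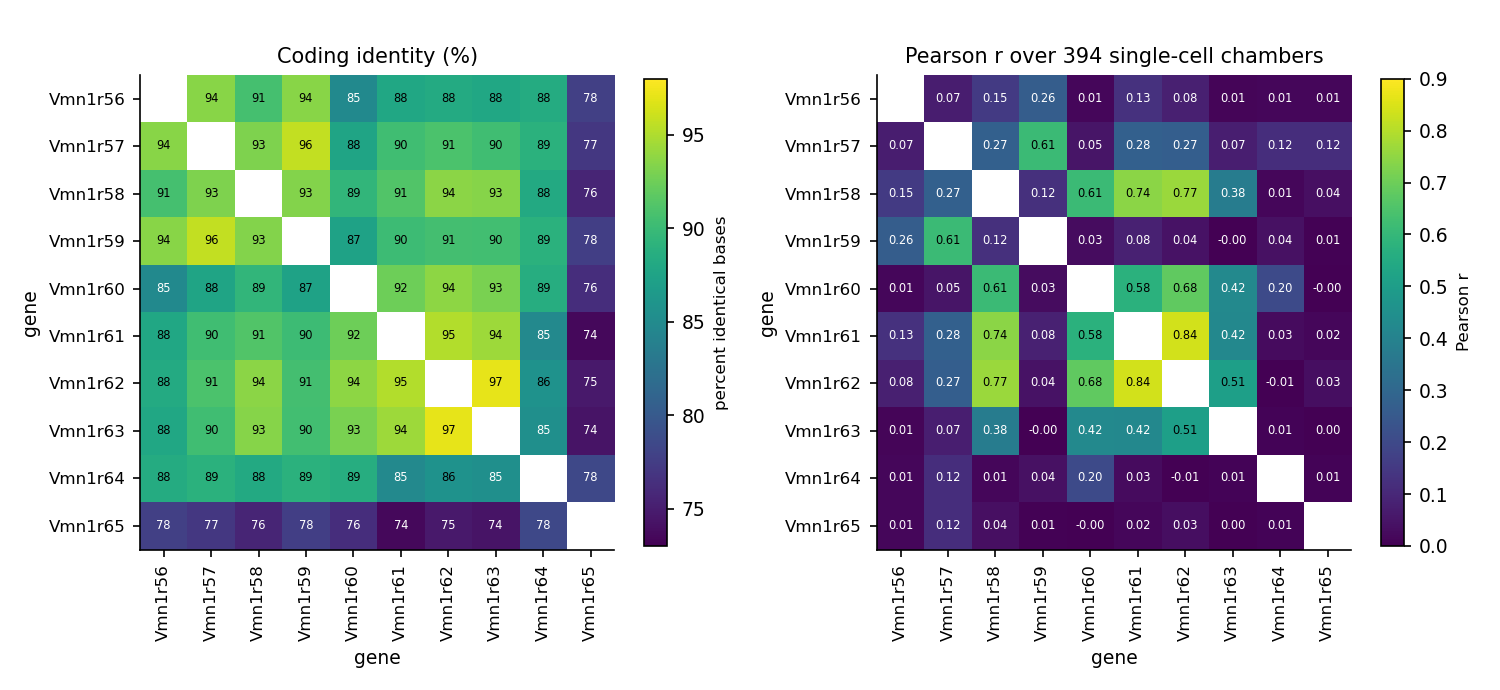
Coding sequence identity (%, left) and Pearson's r of log2(counts per 10000 + 1) over the single-cell chambers (right) for each pair of the 10 genes. Vmn1r58, Vmn1r60, Vmn1r61 and Vmn1r62 form a block of r from 0.58 to 0.84, and Vmn1r64 and Vmn1r65 have low r with all others. Vmn1r65 reached 10 counts in only 1 of these chambers.

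The non-member genes most like a called member were AC102264.1 for Vmn1r63 (r = 0.90 over the single-cell chambers, from 14084 genes searched) and, far behind, Gm7869 and a clone-named transcript for Vmn1r56, Dennd1c and 6530409C15Rik for Vmn1r58, Zscan18 for Vmn1r63, and Bach1 and Hist4h4 for Vmn1r64, all with r of 0.35 or less. These low values rest on 2 to 5 chambers with both genes at 10 counts.

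The chambers led by a member were checked against cell markers. All 25 held Gnai2, at 5.01 to 12.9 counts per 10000 with a median of 7.98, and Omp at 2.76 to 10.1. Gnao1, the G protein alpha subunit of basal neurons, was at 0 to 4 counts in 23 of them, and at 36 and 32 in the Vmn1r64-led chambers of rows 17 and 19, both with title number 20. A member at 50 counts or more was found in 27 single-cell chambers where Gnao1 did not exceed Gnai2 (8.6% [5.74–12.3]) and in 0 of 80 where it did (up to 4.51%). Both classes had like depths, with median totals of 149744 and 147058. Gap43, a marker of young neurons, was at 10 or more in 12 of the 25 chambers. Members at 50 counts were in 12 of the apical-type chambers with Gap43 at 10 or more (11.7% [6.17–19.5]) and in 15 of those with less (7.11% [4.03–11.5]), and these intervals overlap.

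**Figure D5:**
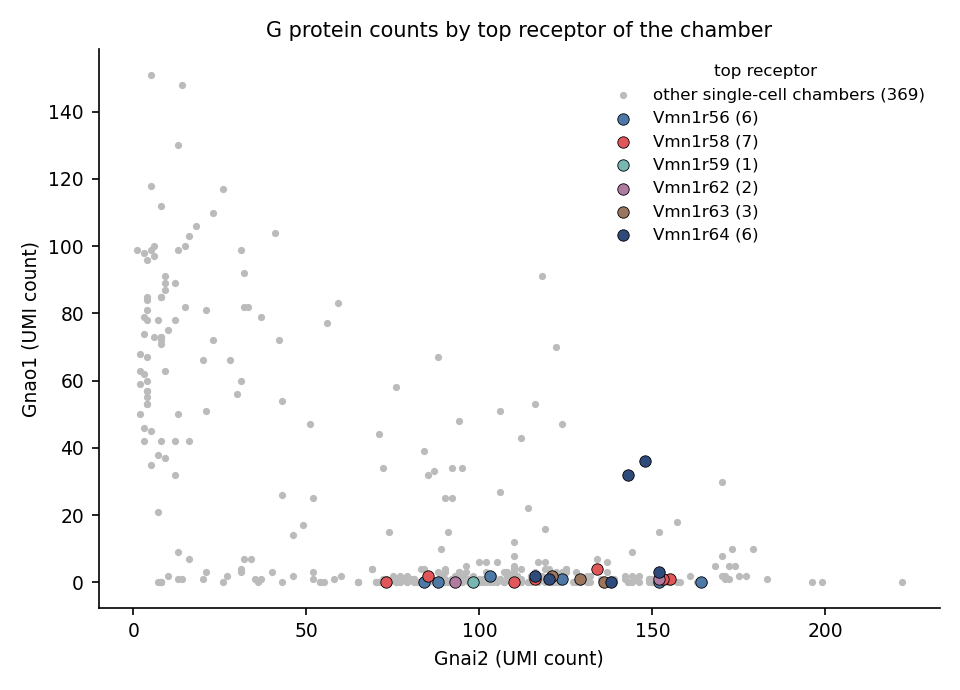
Gnai2 and Gnao1 counts in each single-cell chamber, coloured where a member was the top receptor. The 25 chambers led by a member lie along the Gnai2 axis, and 2 chambers led by Vmn1r64 also hold 36 and 32 counts of Gnao1.

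Cells called for a member were set against cells called for another V1R gene on summed counts, scaled to the total without receptor genes. As deposited this compared 9 cells with the cells of other V1R genes, and with both corrections 20 cells, with 1 unit on each side. Among 12 genes of V1R signal transduction, 1 was past 2-fold higher and 2 past 2-fold lower as deposited, with a median log2 ratio of 0.04, where 11.5% of all 14208 genes tested were past 2-fold higher and 30.7% lower. Plcb2, a phospholipase C of taste and chemosensory cells, was 2.83-fold [2.35–3.39] higher as deposited and 2.49-fold [2.2–2.8] with both corrections, and reached 10 counts in 4 of 9 and 8 of 20 member cells, with a median of 1 count in both. Cnga4, a channel subunit, was at 0.437 [0.323–0.579] of the other cells as deposited and at 0.804 [0.698–0.922] with both corrections. Itpr3, a calcium release channel, had 0 counts in member cells and 6.95 CPM in the others as deposited, where only 2 of the other cells reached 10 counts. The main components differed little with both corrections: Gnai2 was at 1.19 [1.14–1.24] of the other V1R cells, Gng8 at 0.991 [0.954–1.03], Gng13 at 1 [0.952–1.05], Ano1 at 1.13 [1.04–1.23] and Ano2 at 1.15 [1.05–1.26], the latter 2 being calcium-activated chloride channels.

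Of 12 genes of receptor choice and apical identity, 0 were past 2-fold higher and 3 past 2-fold lower with both corrections, with a median log2 ratio of 0.11, where 8.40% of 16181 genes tested were higher and 28.2% lower. The 3 were Ldb1, a cofactor that holds enhancers of olfactory receptors together (0.404 [0.31–0.519]), Nfia, a nuclear factor (0.0221 [0.000559–0.124]), and Tfap2e, the transcription factor of basal neurons (0.258 [0.0307–0.962]). Tfap2e had only 2 counts in the member cells and 82 in the other cells, of which 1 reached 10 counts. Meis2, a marker of apical neurons, was at 1.1 [1.03–1.16] and Lhx2, a factor needed for receptor expression, at 1.15 [1.07–1.23]. Lhx2 turned direction as deposited, at 0.802 [0.706–0.908], with a median of 8 counts in member cells and 36 in the others. Nrp2, a guidance receptor and marker of apical neurons, was lower in both settings, at 0.643 [0.567–0.725] as deposited and 0.664 [0.611–0.722] with both corrections. As deposited, 0 of 12 were past 2-fold higher and 2 past 2-fold lower, Ldb1 and Nfia, each with 0 counts in member cells. Of the other cells, 34 reached 10 counts of Ldb1 and 5 reached 10 counts of Nfia. With a minimum of 10 counts in 25% of cells on the higher side, 8.93% of 5288 genes were past 2-fold higher and 8.77% lower as deposited, and with both corrections 3.63% and 3.08% of 5479.

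Most markers of other cell types were low in the 9 member cells. The basal markers summed to 0 to 4 counts per cell (median 2, with Tfap2e, Vmn2r1 and Vmn2r2 at 0), against 0 to 94 in the other V1R cells. The 3 sustentacular or epithelial markers in the table summed to 0 to 44, with Cyp2a5 and Sox2 at 0. The immune markers summed to 0 to 4 (Ptprc and C1qa at 0), the main olfactory markers to 0 to 1 (Cnga2 and Adcy3 at 0), and the endothelial or stromal ones to 0 to 1. Of the young-neuron markers, which summed to 3 to 180, Gap43 was at 1.3 [1.14–1.49], Dcx at 1.22 [1.03–1.44] and Stmn2 at 0.851 [0.76–0.951] of the other cells, and with both corrections they were at 1.17, 0.865 and 0.872. In the 20 cells called with both corrections the ranges were wider, at 0 to 41 for the basal markers, 0 to 73 for the sustentacular or epithelial ones, 0 to 54 for the main olfactory ones, where Gnal reached 10 counts in 1 cell, and 0 to 19 for the immune ones, and their part in the ratios was not tested.

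The genes that stood farthest apart rested on few cells. As deposited, Phf11a, Phf11d, Gm7869, Rsad2, Frmd8, Phf11c, Wdr63, Clec16a, Rtca and Pnma1 were 7.47-fold to 59.8-fold higher, each at 10 counts or more in 3 or 4 of the 9 cells. Phf11a had 86 counts in the 9 member cells and 18 in all the others, which were far more numerous. That was 59.8 CPM against 1 CPM. Riiad1, Armc8, Dlgap4, Impa1, Hadhb, Acyp1, Oard1, Mylpf, Aen and Gps2 had 0 to 3 counts in the 9 member cells. On the CPM scale these genes were at 0 to 2.09 there and at 82.8 to 110.2 in the other cells. They reached 10 counts in 31 to 49 of the other cells, a minority. With both corrections Clec16a was the 1 gene still among the 10 highest (5.63-fold [4.83–6.56], 10 counts in 6 of 20 cells) and Acyp1 the 1 still among the 10 lowest (0.108 [0.0732–0.154]).

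Compared with the receptor groups most like them, Vmn1r56 to Vmn1r65 were called in 0.9 cells per gene as deposited, Vmn1r45 to Vmn1r54 (9 functional genes in the table) in 1.11, Vmn1r84 to Vmn1r90 (6 genes) in 3.17 and all functional V1R genes outside the 10 in 0.615. With both corrections these were 2, 1.56, 4.33 and 1.13. In chambers led by a gene of the group, the lead gene held at least 50% of the receptor counts in 9 of 25 chambers (36%) for Vmn1r56 to Vmn1r65, 10 of 18 (55.6%) for Vmn1r45 to Vmn1r54 and 19 of 29 (65.5%) for Vmn1r84 to Vmn1r90, and in 45.3% of chambers led by any functional V1R gene outside the 10, which include those 2 groups. The median lead share was 40.4%, 51.7%, 56% and 47.8%. No test of these differences between groups was possible, since all cells come from 1 chip.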

How the data were processed

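The authors deposited 1 table of counts, in which each value is the number of unique molecular identifiers (5 bases long) of a gene in a chamber; libraries were of 3′ ends and the table of 28963 genes was not normalized. Of its 800 chambers, 394 were labelled as holding 1 cell, 325 as empty, 63 as holding several cells and 18 as putatively holding 1. Per the submitters' processing notes, the GRCm38 (mm10) genome was used with STAR 2.5.4b, SAMtools 1.5, UMI-tools 0.5.3, bcl2fastq and Subread's featureCounts 1.6.1; order and settings are not given in the sources used here. The table is named for fractional treatment of multimapping reads, yet it held whole numbers only, up to 662. Of the columns, 1 held no sample and was not used.

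Receptor genes were those named Vmn1r, Vmn2r or Fpr outside V2R family C, pseudogenes (139) included. Minima of 1000 counts and 500 genes per chamber removed 0 chambers. Multiple-cell chambers were kept apart by label and no doublet caller was run. Shares carry Clopper-Pearson intervals, sums Poisson intervals and ratios conditional binomial intervals. In ratios used for counts of genes past 2-fold, a class with 0 counts was set to 3 counts between cell classes. Between single-cell and empty chambers any class with fewer than 3 counts was set to 3. Counts per cell class were tested on 50 counts over both classes. Positions and transcripts came from GENCODE vM21, matched by symbol for all 10 genes. Protein identity and promoter composition were not used here. Software was Python 3.11.15, numpy 2.4.6, pandas 2.3.3, scipy 1.17.1, biopython 1.88 (pairwise identity, gaps counted as differences) and MAFFT 7.526. The calls, the cross-talk step and the ratios were tested on simulated data.

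The 10 genes and the gene lists were chosen with earlier results of these data known. Named beside the 10 genes were, for each called member, the 2 most correlated genes among those with 10 counts in 5 single-cell chambers, second receptors of called chambers, members of the lists, and the 10 genes with the largest ratio each way among those at 10 counts in 25% of cells on the higher side. Other receptors and chambers were named after their values were seen. The values of 1 marker list are not reported here. Alternatives varied the count and share minima, both corrections, the title numbers, the empty chambers used, a correction for the 1024 possible identifiers, the scaling and the minimum for genes.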

Additional observations from a re-analysis of the deposited data

How the results depend on the processing

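No paired analysis was possible because each capture state is 1 unit and no animal or replicate number pairs the chambers. Counting depth limits the calls to receptors with at least 10 counts in a chamber, and sums over chambers rest on few of them.

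The number of cells called for a member was 9, and it was 9 under minima of 5 or 20 counts, without pseudogenes, with putative single cells added, with the identifier correction, without chambers where Gnao1 exceeded Gnai2 and with no minimum per chamber. It was 19 at a minimum share of 30% and 0 at 70%, 15 with either correction alone, 20 with both and 18 with the 10 genes taken as 1 receptor, an alternative added after seeing the data; title numbers 1 to 10 gave 6 and 11 to 20 gave 3. Of the settings that gave 9, the minimum of 20 counts could not change the number, since each called cell held at least 58 counts of its receptor. The minimum per chamber had removed no chamber, so leaving it out gave the same data. Cells per gene were 0.9 and 2 with both corrections. Genes past 2-fold between member cells and other V1R cells were 5991, and 936 when 10 counts in 25% of cells were required. The median share of the highest member was 29.4% over the 40 single-cell chambers with a member at 10 counts or more, whether or not a member was the top receptor. With the cross-talk correction it was 39.8% over 38 chambers.

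The single-cell to empty CPM ratio of the 10 genes together was 0.868. It was 0.801 with empty chambers of low total only, 0.804 without the single-cell chamber of highest count, 0.683 in title numbers 1 to 10, 1.11 in title numbers 11 to 20 and 1.06 without the empty chamber of highest count; the last 2 turn its direction. Leaving out 1 chamber was added after seeing the data. By gene, the direction turned for Vmn1r56 (0.676) without its highest empty chamber (1.1), for Vmn1r57 (0.52) without its highest empty chamber (2.7) and in title numbers 1 to 10 (3.74), for Vmn1r58 (0.671) in title numbers 11 to 20 (1.84), for Vmn1r59 (4.08) in title numbers 11 to 20 (0.754), for Vmn1r60 (0.574) with empty chambers of low total (1.16), in title numbers 11 to 20 (4.94) and without its highest empty chamber (1.79), and for Vmn1r65 (0.48) in title numbers 11 to 20 (2.43). Chambers left out explain the shifts of the leave-out settings by construction, and the cause of the others was not tested. Over all 70 settings by gene, 41 stayed within the interval of the main value.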
